A study of Mus musculus with 4 samples.

Results

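The regions described here are hypersensitive sites of 7438 cells that were listed for the library treated with both dexamethasone (Dex) and estradiol (E2) and for no other library. They were selected on list membership: the 4 deposited lists were merged, overlapping or touching regions were joined, and a member is a merged region to which the Dex+E2 list alone contributed. There were 11919 such regions among 103288 merged regions. The 14781 regions found in the Dex list only and the 7200 found in the E2 list only were set beside them, as a measure of how many sites a single library lists by itself. Absence from a list means only that no region was called there, so the accessibility of a member in the other libraries is unknown.

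The 7438 line is of mouse mammary origin and carries the glucocorticoid receptor (GR) fused to GFP and the estrogen receptor (ER) fused to Cherry, both under a promoter that tetracycline represses. In all 4 conditions the cells were plated 48 h before the experiment in charcoal-dextran serum, and tetracycline was withdrawn 24 h before hormone, for untreated cells as for the others. The groups were untreated cells, cells given 100 nM Dex, cells given 100 nM E2 and cells given 100 nM of each, all hormones for 30 min. DNase-seq, which finds DNA that the nuclease DNase I cuts easily, was available for 1 library per condition. There are no replicates and hence no test of a treatment, and differences between libraries and between treatments cannot be told apart.

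GR and ER are nuclear receptors. Dex activates GR and E2 activates ER, upon which each binds its own response element, often in enhancers that are already accessible, and recruits enzymes that remodel nucleosomes. Where remodelling exposes DNA around a bound receptor, DNase I cuts more often and a hypersensitive site appears or grows. The study asked how hypersensitivity changes when cells receive both hormones at once.

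The untreated list held 65879 regions, the Dex list 51251, the E2 list 35496 and the Dex+E2 list 50061. Maximum tag densities, as the authors scaled them, were whole multiples of the value of 1 tag in all lists (0.227 in the Dex+E2 library). The total to which they were scaled is not stated, so a density limit may mean different things in different libraries. The Dex+E2 library had a median density of 15.4 at the sites in all 4 lists, where the median was 14.7 for Dex, 10.2 for E2 and 30.1 for untreated cells. Intervals on densities are exact Poisson 95% intervals on the tags at the summit, and those on shares are Wilson 95% intervals. Both cover counting error only.

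Most of the members were weak. Their maximum density had a median of 5.22, which is 23 tags at the summit, with 90% of them between 2.95 and 8.85. For comparison, the median region of the whole Dex+E2 list held 36 tags. The members amounted to 25% of the 47766 merged regions with a Dex+E2 listing. The same count was 30% for the Dex list, 21.3% for the E2 list and 41.1% for the untreated list. The membership rule itself gives these shares, and nothing is read from them.

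The densest member, chr15:100122786-100123524, stood apart from the rest. Its maximum density was 34.9 (29.6 to 40.9), from 154 tags, with a deposited Z score of 49.1. It ranked 3251 in the Dex+E2 list by density. The nearest regions in other lists were 6338 bp away in untreated cells (density 5.36) and 6462 bp away after E2 (7.40), while the nearest Dex region was 40386 bp away. The closest other Dex+E2 region lay 26398 bp away.

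The second member by density, chr16:11211433-11212082, reached 21.8 (17.6 to 26.6). It lay 7541 bp from a site present in all 4 lists, with 27.2 in the Dex+E2 library, 44.1 in untreated cells, 20.6 with Dex and 14.6 with E2. These were the only members with a density of 20 or more. From the third member on, the values fell off slowly: chr17:46062703-46063402 had 19.7 (15.8 to 24.3), chr11:87638947-87639720 had 19.5 (15.6 to 24.1) and chr17:75338873-75339513 had 19.1 (15.2 to 23.6). Their intervals overlap, so these 3 have no firm order.

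Further members lay in contrasting surroundings. At chr12:16876017-16876729, with a density of 18.8 (15 to 23.3), a site of all 4 lists lay beside the member, 22 bp away by its untreated region. That site had a density of 28.6 in the Dex+E2 library, 80.9 in untreated cells, 35.0 with Dex and 18.8 with E2. The equally dense chr4:62322018-62322768 (18.8) was 22584 bp from the nearest region of another list. At chr9:60812190-60812882 the density was 17.2 (13.6 to 21.6) and the Z score, 24.9, was the second highest of all members. The nearest region of another list was 47554 bp from it, and another Dex+E2 region lay 7199 bp from it.

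For 15 of the 20 densest members the nearest site of another list was in the untreated list. The others had a nearest site that the E2 list or the Dex list held and the untreated list did not. The untreated list is the longest, with 65284 of the 103288 merged regions, so nothing is read from the count of 15. The member chr11:87638947-87639720 was 1900 bp from a weak region of the E2 list only (6.40). For chr17:75338873-75339513 the nearest site, 4811 bp away, was in the E2 (6.40) and Dex+E2 (7.26) lists only. The same held for chr15:76833986-76834700, with a density of 17.0, with a site of 6.40 after E2 and 12.7 after Dex+E2 at 1752 bp. At chr19:57033853-57034512 (17.2) the nearest site was a region of the E2 list only, at 7985 bp and a density of 6.40. Only chr7:108511691-108512339 (17.2) was nearest to a region found in the Dex list alone, at 844 bp and a density of 7.35.

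The remaining members of this group had densities between 16.8 and 18.6. They were chr12:86152904-86153652 (18.6), chr15:82851042-82852106 (17.5), chr5:24121539-24122214 (17.5), chr11:67969129-67969818 (17.2), chr15:84674072-84674866 (17.2), chr2:168425195-168425957 (17.2), chr6:108812421-108813133 (17.0), chr1:121921136-121921823 (16.8) and chr11:119932796-119933651 (16.8). Each of the 20 held at least 74 tags at its summit and was 640 to 1064 bp wide, with Z scores from 16.1 upward. They were spread over 13 chromosomes, with 4 on chromosome 15 and 3 on chromosome 11. Within 10 kb of 14 of them another list had a region, and within 1 kb of 2. For 8 the nearest such region belonged to a site of all 4 lists.

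**Figure D1:**
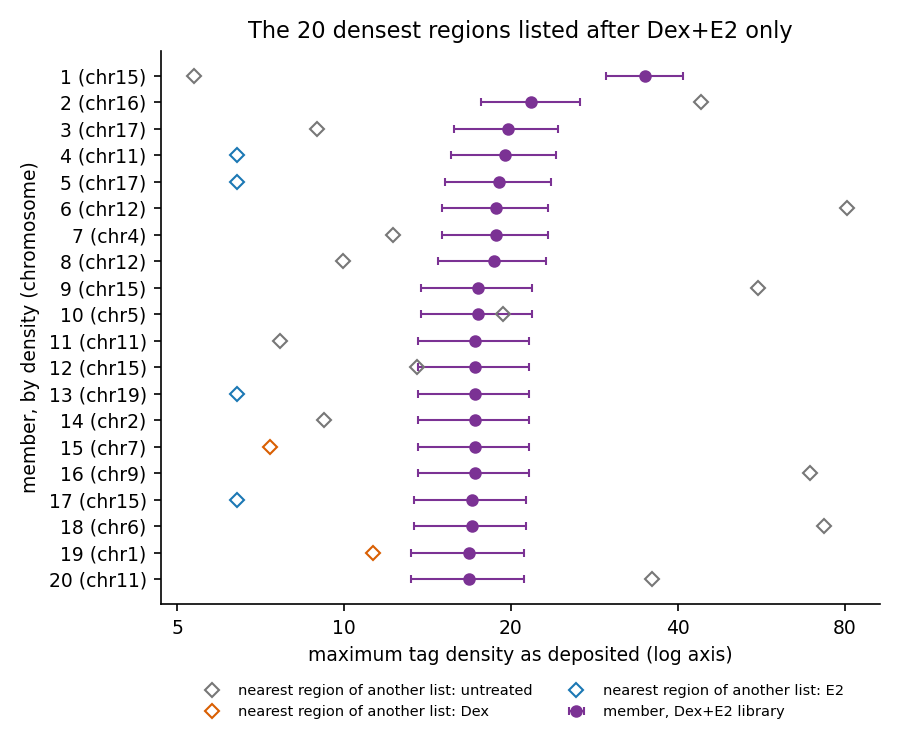
Maximum tag density (log axis, as deposited) of the 20 densest regions listed after Dex+E2 only, 1 row per member labelled with its chromosome; filled points are the members with exact Poisson 95% intervals, open diamonds the density of the nearest region in another list, coloured by that list. The leading member at 34.9 is separate from the others, whose intervals overlap, and the nearest regions of other lists range from 5.36 to 80.9.

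At the other end, the members with the lowest density had 9 tags at the summit (2.04). Of those at this level, the ones first in genome order were chr1:3049612-3049907, chr1:87351356-87351747, chr1:95817656-95817913, chr1:153647475-153647741 and chr1:175540563-175540848, with Z scores between 5.39 and 6.83. The widest members were chr14:61553820-61554978 (1158 bp, density 8.62) and chr6:35353199-35354294 (1095 bp, 8.85), followed by chr15:82851042-82852106 (1064 bp). The median member was 317 bp wide, and 20.6% had the smallest width found in any list, 251 bp. Regions present in all 4 lists had a median merged width of 1009 bp.

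At a limit on the density as deposited, more members than one-library regions of the single-hormone lists passed. A density of 10, here called dense, was reached by 328 members, against 154 regions of the Dex list only and 27 of the E2 list only. In the untreated list 2043 dense regions were found nowhere else. As a share of all dense regions in the same list these were 1.74% (1.56 to 1.94) for Dex+E2, 0.846% (0.723 to 0.990) for Dex, 0.249% (0.171 to 0.362) for E2 and 6.88% (6.60 to 7.18) for untreated cells. The Dex and Dex+E2 lists are close in length and in their median density at shared sites, and below a density of 8 the Dex list had the larger share. The order turned with density: between 6 and 8 the shares were 28.2% for Dex+E2 and 33.7% for Dex, between 10 and 15 they were 3.91% and 2.04%, and between 15 and 20 they were 1.21% and 0.143%.

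The Dex+E2 share of dense regions exceeded the Dex share under the 12 alternatives that could change either and gave both. With the untreated list left out the shares were close (2.45% and 2.30%). All these alternatives use the same libraries again, so their number gives no separate support for the order. Against E2 and untreated cells the order depends on the scaling. With the limit set at the same multiple of each library's median over shared sites, the E2 share rose to 3.20%, above the 1.74% of Dex+E2, and the Dex share was 1.12%. The untreated share fell to 0.223%, from 36 regions in place of 2043. Ranks within each list gave the same order: among the 20000 densest regions, 421 were found after Dex+E2 only (2.11%), 274 after Dex only (1.37%), 761 after E2 only (3.81%) and 172 in untreated cells only (0.860%). Among the 10000 densest, the shares were 0.17% (0.106 to 0.272) for Dex+E2 and 0.22% (0.145 to 0.333) for E2, with overlapping intervals. They were 0.04% for Dex and 0.01% for untreated cells. The E2 list held 33806 merged regions and the untreated list 65284, so a fixed rank takes a larger part of the E2 list.

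**Figure D2:**
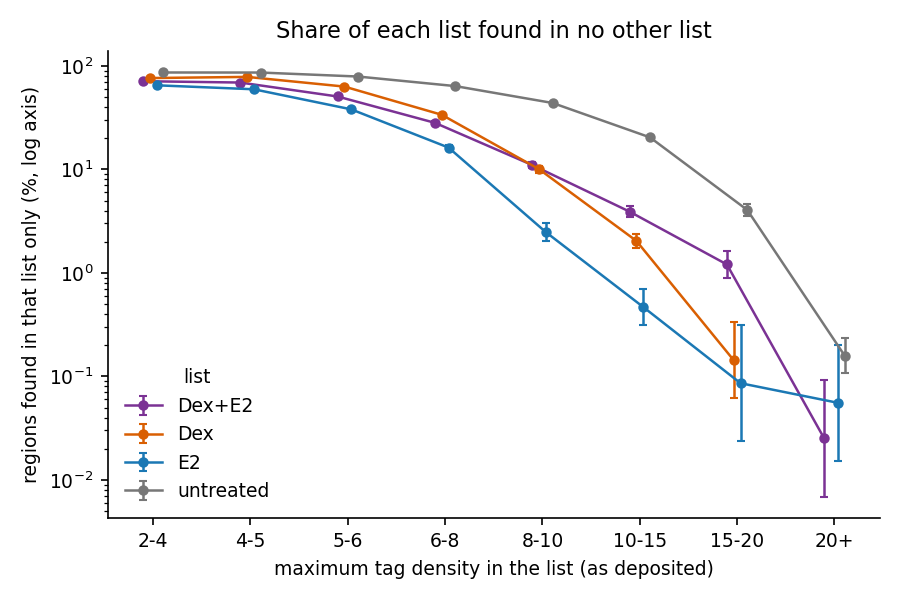
Share of each list's merged regions that no other list holds (percent, log axis), in bands of maximum tag density as deposited; points are single libraries, bars Wilson 95% intervals, and the Dex list has no point at 20 or more because its share there is 0. All 4 curves fall from a density of 5 upward, and the Dex+E2 curve lies below the Dex curve at low density and above it from 10 to 20.

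The deposited Z score, whose background model is not stated, ordered the hormone libraries as the unscaled density limit of 10 did from a score of 8 upward. The score too differed between libraries at sites in all 4 lists. Its median there was 19.0 for Dex+E2, 17.2 for Dex, 12.5 for E2 and 35.4 for untreated cells. A fixed score may thus mean different things in different libraries, and it gives no separate support for the order. At a score of at least 6 the Dex share, 14.5%, was above the Dex+E2 share of 12.2%, with 9.06% for E2. At a score of at least 8 the shares were 3.78% for Dex+E2, 2.60% for Dex and 1.03% for E2. A Z score of at least 15 was reached by 72 members, 6 regions of the Dex list only and 1 region of the E2 list only, or 0.506% (0.402 to 0.636), 0.0464% and 0.0117% of the regions of each list at that score. Untreated cells had 255 (1.14%). At a Z score of 20 or more there were 14 members, 1 region after Dex only and none after E2 only. Conversely, 63.0% of the members had a Z score under 6, close to the 65.1% of Dex-only and 67.9% of E2-only regions.

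The dense one-library regions of the 3 hormone lists also differed in form. Dense members had a median width of 626 bp and a median Z score of 11.7, at a median density of 11.8. Dense Dex-only regions had 589 bp and 9.37, at a median density of 10.8. Between densities of 10 and 15 the median widths were 618 bp for members and 588 bp for Dex-only regions. Dense E2-only regions were narrower, at 399 bp, with a median Z score of 6.44 despite a median density of 12.4. Examples are the 3 densest E2-only regions, chr8:19976159-19976421 (density 27.6, Z score 6.44), chr8:19977629-19977885 (21.0 and 5.42) and chr8:19952094-19952368 (18 and 5.83), all within 2.1 kb of sites in all 4 lists. Of the 27 dense E2-only regions, 17 lay in 2 windows of 1 Mb on chromosomes 1 and 8, where 9 of the 328 dense members lay as well. Without these windows the shares were 1.71% for Dex+E2, 0.824% for Dex and 0.0934% for E2.

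In the Dex-only set the densest region was chr6:134509446-134510135 (18.1, Z score 16.9), followed by chr2:177304598-177305045 (16.9, Z score 6.56) and chr6:5088825-5090006 (16.2, Z score 13.3). The first of these would rank ninth among the members by density. The untreated-only set was led by chr1:24560214-24560767 (40.8, Z score 12.1), chr11:3166215-3166752 (26.5, Z score 7.77) and chr4:59412102-59412756 (24.7, Z score 17.6). The leading member had a higher Z score (49.1) than the highest among untreated-only regions (31.1), although its density was lower than that of chr1:24560214-24560767. In the density range from 10 to 15, the 282 members had a median Z score of 11.3, while sites of all 4 lists with a Dex+E2 density in that range had 14.6. The other one-library sets were below such sites too, each by its own library. The medians were 9.33 against 13.8 for Dex, 6.54 against 15.1 for E2 and 10.3 against 14.9 for untreated cells.

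Among Dex+E2 regions missing from the untreated list, the members gave way to sites shared with a single hormone as density rose. Of all 15636 such regions, 76.2% (75.6 to 76.9) were members. At a density of at least 10 there were 1456, of which 328 (22.5%, 20.5 to 24.7) were members, 536 were shared with the Dex list only, 470 with the E2 list only and 122 with both. At 15 or more, 46 of 494 (9.31%, 7.05 to 12.2) were members, and at 20 or more 2 of 219 (0.913%, 0.251 to 3.27), with 93 shared with Dex only, 71 with E2 only and 53 with both. The densest Dex+E2 regions without an untreated listing were thus nearly all in at least 1 single-hormone list.

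The Dex list gave a steeper decline. Of its 931 regions with a density of at least 10 and no untreated listing, 154 (16.5%, 14.3 to 19.1) were found nowhere else, and 5 of 292 (1.71%, 0.734 to 3.95) at 15 or more. For the E2 list the counts were 27 of 239 (11.3%, 7.88 to 15.9) and 4 of 46 (8.70%, 3.43 to 20.3). At 15 or more the Dex+E2 and Dex intervals do not overlap, whereas the E2 interval covers the Dex+E2 share. These intervals cover counting error in single libraries, and the limit of 15 was not scaled between libraries. No difference between conditions is read from them. A Dex region with no untreated listing has the Dex+E2 library as a partner with the same hormone, and so has an E2 region. A Dex+E2 region has 2 libraries with 1 of its hormones each. Whether this bears on the decline was not tested.

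**Figure D3:**
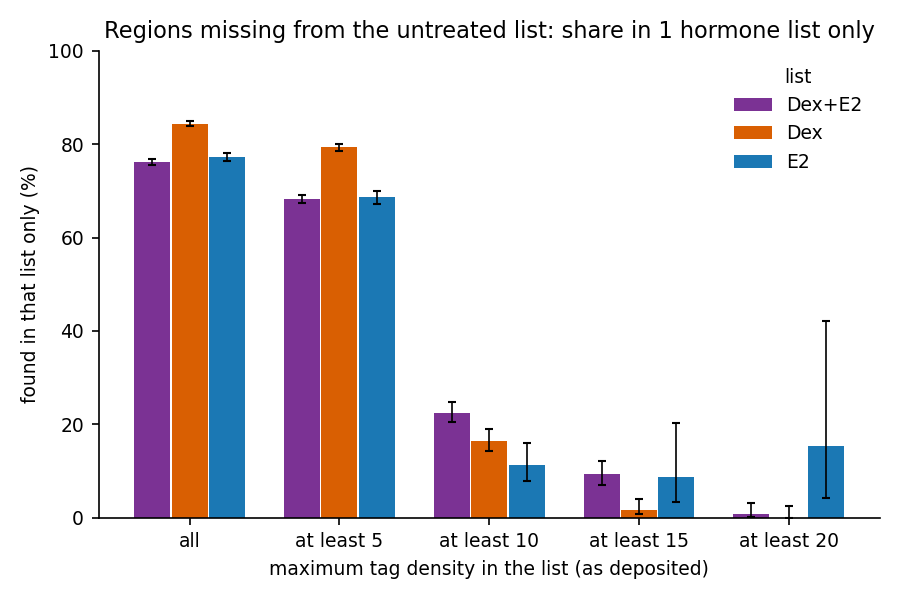
Of the regions missing from the untreated list, the share found in a single hormone list (percent), for the Dex+E2, Dex and E2 lists and 5 lower limits of maximum tag density; bars are single libraries with Wilson 95% intervals. The Dex+E2 share falls from 76.2% to 0.913%, and the Dex list has no such region at 20 or more.

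Within 1 kb, the members lay near regions of other lists about as often as the other one-library sets did. An edge within 1 kb of a region of another list was found for 1455 members (12.2%, 11.6 to 12.8), for 12.3% of Dex-only and for 12.6% of E2-only regions. Within 10 kb the shares were 54.2% (53.3 to 55.1), 48.2% and 53.7%. The other lists differ in length between these sets, since each set is compared with the 3 lists it is missing from. For members the nearest region was at a median of 13998 bp in the untreated, 18266 bp in the Dex and 29038 bp in the E2 list, in the order of the lists' lengths.

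Dense members lay closer to regions of other lists than members as a whole. Of the 328, 67 (20.4%, 16.4 to 25.1) had a region of another list within 1 kb and 267 (81.4%, 76.8 to 85.2) within 10 kb. Dense Dex-only regions had 29.2% (22.6 to 36.8) and 81.2%, and the 27 dense E2-only regions had 63.0% (44.2 to 78.5) and 92.6%. The E2-only share within 1 kb was thus above that of the dense members. Of these 27 regions, 17 lay in 2 windows of 1 Mb, so they are not independent and their interval is too narrow. For 132 of the dense members the nearest such region was a site in all 4 lists, and for 59 it was a region of the untreated list only. The nearest region was in the E2 list only for 20, in the Dex list only for 16, in the E2 and Dex+E2 lists only for 12 and in the Dex and Dex+E2 lists only for 10.

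Around sites of the Dex+E2 list and 1 single-hormone list only, the share of members was slightly above that of Dex-only regions. The share of E2-only regions was above that of members near the E2 and Dex+E2 sites, and below it near the Dex and Dex+E2 sites. Distances were taken between centres. The 1362 sites of the E2 and Dex+E2 lists alone lay within 10 kb of 297 members (2.49%, 2.23 to 2.79), of 1.54% (1.35 to 1.75) of Dex-only and of 2.82% (2.46 to 3.23) of E2-only regions. The 1984 sites of the Dex and Dex+E2 lists alone lay within 10 kb of 340 members (2.85%, 2.57 to 3.17), 2.16% (1.94 to 2.41) of Dex-only and 2.38% (2.05 to 2.75) of E2-only regions. Sites in all 4 lists had these neighbours more often than members did, at 3.12% and 4.13%. For the dense members the shares were 6.40% (4.23 to 9.59) and 5.79% (3.74 to 8.87), against 3.15% and 4.28% for dense sites in all 4 lists. The interval of the former lies above its counterpart, and that of the latter covers it. Dense Dex-only regions had 3.90% (1.8 to 8.24) and 5.19% (2.66 to 9.92), with intervals that overlap those of the dense members. Of the 27 dense E2-only regions, 22.2% (10.6 to 40.8) lay near the former and 11.1% (3.85 to 28.1) near the latter. The first is above the interval of the dense members, but 17 of the 27 lay in 2 windows, so its own interval is too narrow. The neighbouring sites are themselves defined by the Dex+E2 list, which these comparisons share.

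Sites in all 4 lists were within 10 kb of 16% (15.4 to 16.7) of members, 13.4% of Dex-only and 13.1% of E2-only regions. Among dense ones the shares were 43.6% (38.3 to 49.0) for members, 51.3% (43.5 to 59.1) for Dex-only and 77.8% (59.2 to 89.4) for E2-only regions. Another member lay within 10 kb of 1629 members (13.7%) and within 1 kb of 296 (2.48%). Whether this is more or less than random spacing gives was not tested.

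Chromosomes contributed unequally to the members. Chromosome X held 579 of them (4.86%), against 2.48% of the sites in all 4 lists, and 40.9% of the Dex+E2 regions on X were members. Chromosome 11 held 4.74% of members against 7.60% of the sites in all 4 lists, and 18% of its Dex+E2 regions were members. The shares of Dex-only and E2-only regions were alike, at 4.95% and 4.51% on X and 4.39% and 4.33% on chromosome 11. The single-hormone sets thus showed the same pattern.

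Among dense members the order was reversed. Chromosome 11 held 40 of the 328 and chromosome 1 held 39, of which 8 lay in its window with many dense E2-only regions. Chromosomes 14, 18 and X held 1 each and chromosome 13 held 4. All dense Dex+E2 regions of these chromosomes numbered 1607, 1335, 463, 446, 275 and 718, in the order named. Members made up 2.49%, 2.92%, 0.216%, 0.224%, 0.364% and 0.557% of them. The median density of all members was 6.35 on chromosome 12, 6.13 on chromosome 11, 4.31 on chromosome 14 and 3.18 on X. Dex-only regions followed the same order, with 6.37, 6.12, 4.16 and 3.43, and so did E2-only regions, with 6.20, 5.80, 4.0 and 3.20. The median Z score of the members hardly moved, from 5.64 to 5.84 over the 20 chromosomes. Dense regions of the single-hormone sets were likewise few on chromosomes 13, 14, 18 and X. There were 3, 1, 0 and 0 dense Dex-only regions there, and no dense E2-only region. Elsewhere the sets differed: 6 dense Dex-only regions lay on chromosome 11 and 32 on chromosome 6. No dense E2-only region lay on chromosome 11, and the 8 on chromosome 8 all lay in its window from 19 to 20 Mb. What sets the level of a chromosome was not tested.

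Within chromosomes, the share of dense regions found in a single list was higher for Dex+E2 than for Dex on 18 of 20 chromosomes. The exceptions were chromosome 6, with 2.66% for Dex+E2 and 2.94% for Dex, and chromosome 14, with 1 dense region in each set. On chromosome 11 the shares were 2.49% and 0.390%, and on chromosome 1 they were 2.92% and 1.06%. Each chromosome compares the same 2 libraries, so these counts are no replicates.

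**Figure D4:**
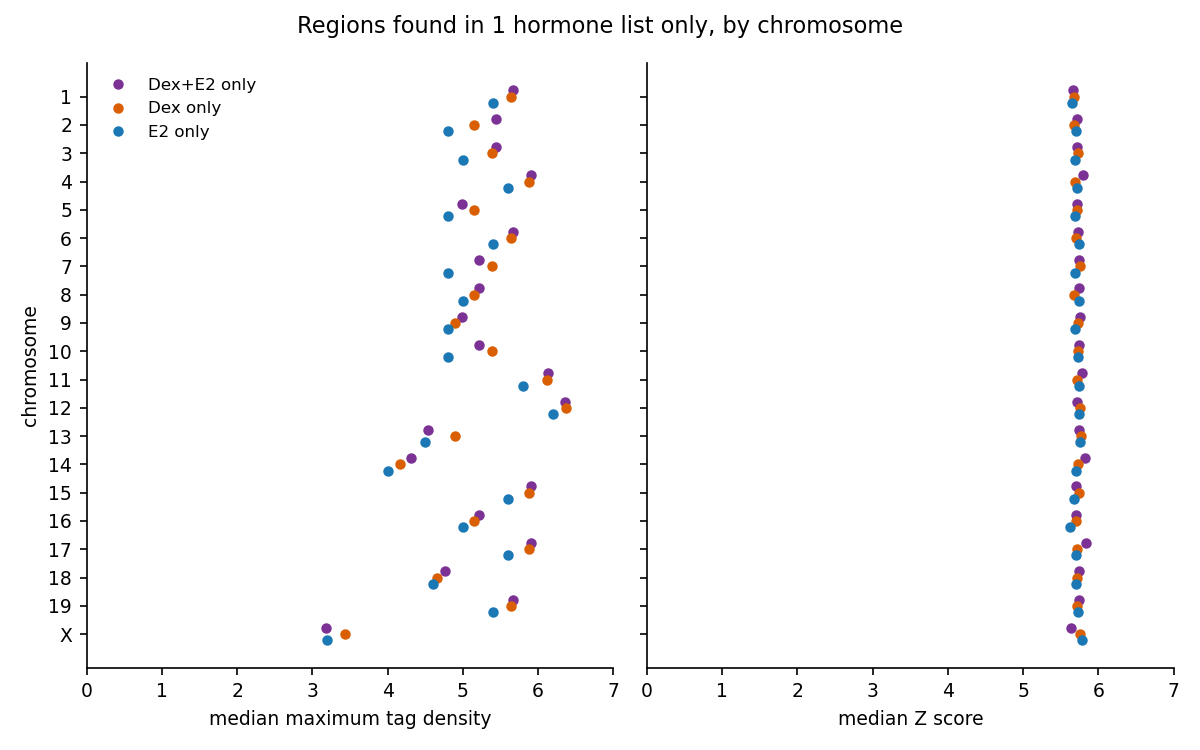
Median maximum tag density as deposited (left) and median Z score (right) of the regions found in the Dex+E2, Dex or E2 list only, 1 row per chromosome and 1 point per list. Density medians of the 3 lists move together, from about 3.18 on X to 6.35 on chromosome 12 for Dex+E2, while Z score medians stay between 5.64 and 5.84 for Dex+E2.

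The membership rule turns on small gaps for few regions. Members nearest to another list's region were chr8:49129684-49130087 (a gap of 1 bp, density 6.81), chr1:117282902-117283153 (2 bp, 4.99) and chr3:86955928-86956269 (2 bp, 6.35). Just outside the rule, chr1:85289083-85289335 (density 7.49), chr12:56088093-56088540 (7.03) and chr16:23245176-23245798 (8.85) touched a region of another list without overlap. In all, 103 members had a gap of at most 50 bp, and 99 Dex+E2 regions overlapped another list by at most 50 bp. Their median densities were 5.44 and 5.67.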

How the data were processed

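Per the labels, the libraries are DNase-seq of untreated, Dex, E2 and Dex+E2 cells, 1 each, and groups were taken from the treatment label. Per the submitters' processing notes the build is mm9 and CASAVA 1.8 was used. What aligned the reads and called the regions is not given in the sources used here. The maximum and average tag densities are, per the file headers and their steps, coverage signal that the authors scaled. A deposited Z score and a deposited p-value come with every region. The p-value was not used.

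Merging joined regions that overlapped or began at the previous region's end, and a merged region took the highest value of each list. The tag value was fitted per library, and 100% of densities were whole multiples within 0.02 tags. Named regions are the 20 densest members, the 5 lowest, the 3 with the largest Z score, the 3 widest, and the 3 densest regions of the other one-library sets, besides those nearest to the limit of the rule. Members, sets and limits were chosen with earlier results of these data known. Merging and distances were tested on simulated data. Genes and sequences at the regions were not analysed here, because the reference tables use another build. The work used pandas 2.3.3 and NumPy 2.4.6 under Python 3.11.15, SciPy 1.17.1 for intervals and Matplotlib 3.10.9 for plots.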

Additional observations from a re-analysis of the deposited data

How the results depend on the processing

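No paired analysis was possible because each condition has 1 library. The number of members, 11919, was 4368 with lists of equal length, 1648 in the denser 50% of each list and 328 at a density of at least 10. Their median density was then 7.03, 9.53 and 11.8. The share of dense Dex+E2 regions that are members, 1.74%, was 1.45% with regions within 1 kb joined, 3.40% in the denser 50%, 2.10% by average density, 1.36% by Z score, and 2.45%, 4.65% and 4.26% without the untreated, Dex or E2 list.

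The share of members within 1 kb of another list's region, 12.2%, was 9.90% and 0% with regions within 150 bp and 1 kb joined, the latter by construction. It was 13.5% with equal lengths, 13.8% in the denser 50%, 11.0% and 11.2% without the untreated or Dex list, and 20.4% at a density of at least 10. The share within 10 kb of sites in the E2 and Dex+E2 lists only, 2.49%, was 2.18% and 1.38% with 150 bp and 1 kb joined, 4.40% with equal lengths, 4.07% in the denser 50%, 5.13% and 3.70% without the untreated or Dex list, and 6.40% at a density of at least 10. For sites in the Dex and Dex+E2 lists only, 2.85% became 1.73% with 1 kb joined, 4.65%, 5.22%, 10.5% without the untreated list, 4.35% without the E2 list and 5.79%. Lists that are left out or shortened change which regions count as members and as neighbours. For the other changes the cause was not tested.

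Scaling the limit to the library medians, joining regions 1 bp apart and leaving out the windows with 3 or more dense E2-only regions were chosen after seeing the data. The median density has no value by average density or Z score. The planned motif and gene analyses were not run.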

Other observations

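Members were spread widely: 2522 windows of 1 Mb held at least 1, with a median of 4 per window, and 113 windows held 10 or more. The window with the most, from 130 to 131 Mb on chromosome 6, held 21 members, 14 Dex-only, 21 E2-only and 19 untreated-only regions, none of them dense. Windows at 115 to 116 Mb of chromosome 12 (14, 19, 17 and 18 in the same order) and at 113 to 114 Mb of chromosome 4 (15, 20, 10 and 18) were alike, with each library listing regions of its own. In other windows the members outnumbered the single-hormone sets. From 173 to 174 Mb of chromosome 2 there were 18 members, 8 Dex-only, 3 E2-only and 11 untreated-only regions. From 53 to 54 Mb of chromosome 19 the counts were 14, 6, 2 and 14, so the untreated list had as many regions of its own there. These windows were picked as those with the most members, so their excess is a description.

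The windows with the most dense members differed in what else they held. From 167 to 168 Mb of chromosome 2 there were 7 dense members, 2 dense Dex-only and no dense E2-only regions, beside 10 dense untreated-only regions. From 119 to 120 Mb of chromosome 11 the counts were 6, 0, 0 and 3, and from 145 to 146 Mb of chromosome 6 they were 6, 2, 0 and 8. The window from 90 to 91 Mb of chromosome 1 had 8 dense members, 4 dense Dex-only, 9 dense E2-only and 5 dense untreated-only regions.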
